A study of Mus musculus with 2 samples.

Results

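The 9 genes described here are known targets of Wnt signalling in mouse hepatocytes: Glul, Slc1a2, Oat, Rhbg, Lgr5, Axin2, Rnf43, Znrf3 and Tbx3. They were taken by symbol from the count matrices, which list 31053 genes, and all 9 were present in both libraries. They were followed across hepatocytes of different depth and lobular position and across the other cell types of mouse liver. Droplet single-cell RNA sequencing had been run on mixed suspensions of hepatocytes and non-parenchymal cells from C57BL/6 mice, with 1 library per group. The pIVCL library came from a liver taken 6 weeks after partial ligation of the inferior vena cava (pIVCL), an operation on mice aged 8 to 10 weeks that narrows the vein above the liver, congests the organ and raises portal pressure. The Control library is titled as healthy and carries the genotype label Control, although the growth protocol filed with it also describes the ligation. Whether the Control mouse had a sham operation, and how many mice each library holds, was not stated in the labels.

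Hepatocytes differ along the path of blood from the portal tract to the central vein. Wnt ligands made by endothelial cells of the central vein and nearby sinusoids stabilise beta-catenin in the hepatocytes next to them, and beta-catenin then acts with TCF factors on target genes. R-spondins strengthen the signal by removing the ubiquitin ligases that take Frizzled receptors off the cell surface. Some targets carry out the work of perivenous cells, such as the capture of ammonia as glutamine, while others feed back on the pathway itself.

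The pIVCL library held 5443 cells after filtering, with a median of 2005 unique molecular identifiers (UMIs) per cell, and the Control library 2721 cells with a median of 5262. Hepatocyte-like cells numbered 1870 (34.4% of cells) in pIVCL, with a median of 2692.5 UMIs, and 471 (17.3%) in Control, with a median of 7252. All 12 hepatocyte markers, Alb and Apoa1 among them, were detected in the class, at ratios of pIVCL over Control between 0.555 and 1.93. The cells fell into 6 clusters, and cluster 3 held 736 pIVCL cells and 7 Control cells while cluster 12 held 4 and 259, so most deep hepatocytes of the libraries sat in different clusters. The remaining clusters 4, 5, 15 and 16 held cells of both libraries, most of them shallow. The libraries shared 13 barcodes. Levels below are CPM, the UMIs of a gene summed over a set of cells and scaled to 1000000 UMIs of that set. Brackets after a level, share or ratio give the 95% interval, which covers counting error only. With 1 library per group nothing was tested, no difference has a replicate check, and every ratio compares these libraries rather than the conditions.

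In hepatocyte-like cells the genes of perivenous nitrogen metabolism stood far lower in pIVCL. Glul encodes glutamine synthetase, which joins ammonia to glutamate, and lies at chr1:153899944-153909723 on the plus strand of GRCm38. It had 48.5 CPM in pIVCL (873 UMIs, 45.3 to 51.8) and 1609 CPM in Control (11724 UMIs, 1580 to 1639), a ratio of 0.0301 (0.0281 to 0.0323). Slc1a2, at chr2:102658659-102790784 on the plus strand, encodes a glutamate transporter that supplies these cells. It stood at 5.33 CPM in pIVCL (96 UMIs) and 338 CPM in Control (2465 UMIs), a ratio of 0.0158 (0.0127 to 0.0193). Oat, at chr7:132557478-132576398 on the minus strand, encodes ornithine aminotransferase, a mitochondrial enzyme that turns ornithine towards glutamate. Its level was 159 CPM in pIVCL (2862 UMIs) and 1044 CPM in Control (7604 UMIs), with a ratio of 0.152 (0.146 to 0.159). Rhbg, at chr3:88242874-88254709 on the minus strand, encodes an ammonium transporter of the Rh family. It had 1.61 CPM in pIVCL (29 UMIs) and 14.4 CPM in Control (105 UMIs), a ratio of 0.112 (0.0714 to 0.170).

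The promoters of the 3 members with the most UMIs, together with that of the feedback gene Axin2, are shown so that the stretch beside an annotated start can be read for the sites at which TCF factors bind. Which start the counted transcripts use was not measured, and the Slc1a2 window lies inside the gene span given above. They are the 250 bases before the start in RefSeq's GRCm38.p6 table, which has entries for 5 of the 9 members (Glul, Slc1a2, Oat, Axin2 and Rnf43, the last with a pair of starts). Capitals mark a TCF/LEF motif, searched on both strands as the letters CTTTG followed by AA, AT, TA or TT, which makes 4 motifs of 7 letters. The windows are chr1:153899679-153899928 (plus strand) for Glul, chr2:102706188-102706437 (plus) for Slc1a2, chr7:132576399-132576648 (minus) for Oat and chr11:108920099-108920348 (plus) for Axin2.
Glul: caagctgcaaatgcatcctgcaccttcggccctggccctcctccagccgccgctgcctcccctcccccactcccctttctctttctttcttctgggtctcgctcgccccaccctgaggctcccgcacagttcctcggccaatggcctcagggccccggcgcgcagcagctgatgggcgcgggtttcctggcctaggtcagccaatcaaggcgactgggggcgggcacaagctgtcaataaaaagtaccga
Slc1a2: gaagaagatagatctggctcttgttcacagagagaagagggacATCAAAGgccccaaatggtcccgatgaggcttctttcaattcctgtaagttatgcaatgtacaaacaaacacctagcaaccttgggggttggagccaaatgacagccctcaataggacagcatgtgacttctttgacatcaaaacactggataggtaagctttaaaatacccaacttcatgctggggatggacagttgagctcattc
Oat: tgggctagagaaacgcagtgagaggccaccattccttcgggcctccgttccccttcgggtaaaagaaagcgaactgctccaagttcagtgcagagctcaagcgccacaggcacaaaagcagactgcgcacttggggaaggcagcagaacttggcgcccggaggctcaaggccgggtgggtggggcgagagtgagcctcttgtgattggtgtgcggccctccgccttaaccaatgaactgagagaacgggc
Axin2: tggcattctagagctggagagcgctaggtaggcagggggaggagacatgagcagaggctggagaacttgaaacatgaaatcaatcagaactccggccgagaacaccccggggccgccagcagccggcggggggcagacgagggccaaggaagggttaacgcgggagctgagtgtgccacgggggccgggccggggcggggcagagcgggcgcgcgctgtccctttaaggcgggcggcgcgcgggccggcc
Among the 5 members with an entry, Slc1a2 alone held a motif, CTTTGAT on the minus strand, whose first base on the strand shown is at position -207 from the start. Of all 32851 promoters searched over the same length, 14.8% held at least 1 such motif, so the match is a description of the window.

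The regulators and feedback genes had far fewer UMIs than Glul and Oat, and their ratios were nearer to 1 than those of the 4 metabolic genes. Lgr5 (chr10:115450311-115587780, minus strand) encodes a receptor for R-spondins. It had 2.72 CPM in pIVCL (49 UMIs) and 14.3 CPM in Control (104 UMIs), a ratio of 0.191 (0.133 to 0.270). Tbx3 (chr5:119670669-119684724, plus) encodes a T-box transcription factor. Its level was 13 CPM in pIVCL (234 UMIs) and 34.3 CPM in Control (250 UMIs), and the ratio was 0.379 (0.316 to 0.455). Rnf43 (chr11:87662722-87735539, plus) and Znrf3 (chr11:5276324-5444847, minus) encode membrane ubiquitin ligases that take Frizzled receptors off the surface and so dampen the pathway. Rnf43 stood at 9.11 CPM in pIVCL (164 UMIs) and 17.4 CPM in Control (127 UMIs), with a ratio of 0.523 (0.412 to 0.665). Znrf3 stood at 5.78 CPM in pIVCL (104 UMIs) and 11.5 CPM in Control (84 UMIs), with a ratio of 0.501 (0.372 to 0.677). Axin2 (chr11:108920349-108950783, plus) encodes a scaffold of the beta-catenin destruction complex and is a standard readout of the pathway. It had 3.72 CPM in pIVCL (67 UMIs) and 7.14 CPM in Control (52 UMIs), a ratio of 0.522 (0.358 to 0.765). All members except Znrf3 overlap another annotated gene, among them Fgfr2 for Oat, on the same strand, and the antisense Tbx3os1 for Tbx3, and the sources used here do not say how reads in shared stretches were counted.

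**Figure D1:**
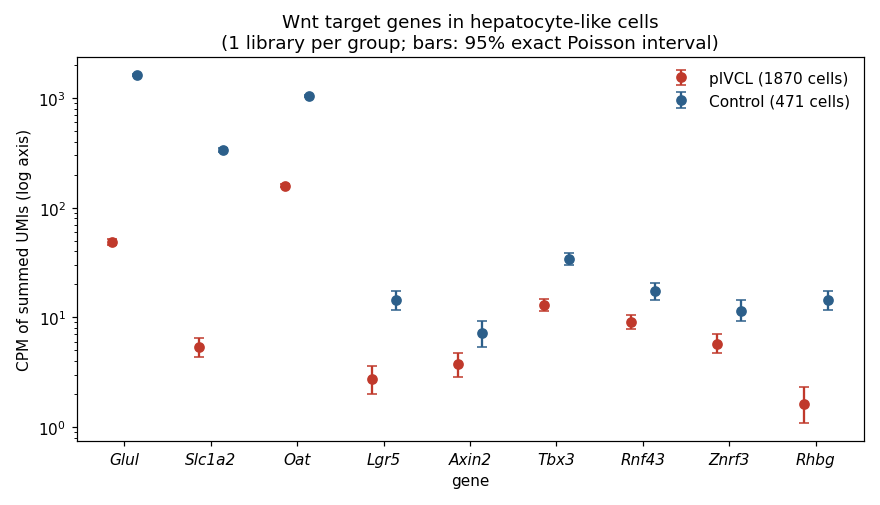
Level of the 9 genes (CPM of summed UMIs, log axis) in hepatocyte-like cells, 1870 of pIVCL (red, left) and 471 of Control (blue, right), 1 library per group; bars are 95% exact Poisson intervals. All 9 pairs are lower in pIVCL, and the gaps are widest for Slc1a2 (ratio 0.0158) and Glul (0.0301) and narrowest for Rnf43 (0.523) and Axin2 (0.522).

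In hepatocyte-like cells 6 of the 9 genes had a ratio of 0.5 or less, beside 3.99% of the 11540 genes with at least 20 UMIs, and none had a ratio of 2 or more, beside 5.93%. The interval of all 9 ratios lay below 1, beside 21.7% of those genes. The median log2 ratio with 20 CPM added was -0.67 over the 9 genes and 0.00 over all 11540. The sizes depended on which cells were summed. Without clusters 3 and 12 the ratio of Glul was 0.324 and 4 of the 9 intervals lay below 1, and with an equal weight for every cell, shallow ones included, it was 0.0797. The share of all genes with such an interval was not measured without clusters 3 and 12, so that count has nothing beside it. Without those clusters the ratios of Lgr5 and Axin2 were above 1, at 2.16 and 1.62.

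Mitochondrial share moved with these values. The hepatocyte-like class had a median of 3.73% mitochondrial UMIs in pIVCL, where more of its cells were shallow, and 16.9% in Control. The part of this difference in the ratios was not tested. Among cells of 10% or less the ratio of Glul was 0.329 (0.258 to 0.421), with 68.2 CPM in 1083 pIVCL cells and 207 CPM in 194 Control cells. It was 0.0427 in cells above 10% and up to 15%, 0.0120 above 15% and up to 20%, and 0.0493 above 20% and up to 25%. Cells of at least 10000 UMIs had medians of 19.4% in pIVCL and 20.2% in Control, and only 22 of 686 and 9 of 218 were at 10% or less. Of the cells of that depth with Glul at 1000 CPM or more, 5 in pIVCL and 28 in Control, 0 were at 10% or less. A limit of 10% with at least 1000 UMIs thus kept 659 pIVCL and 118 Control cells, at a Glul ratio of 0.328, with 4 of the 9 intervals below 1. The share of all genes with such an interval was not measured under that limit.

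Lobular position was read from 14 central and 15 portal genes, none of them among the 9. The central index of a cell is the share of central UMIs among its central and portal UMIs, and cells with at least 10 such UMIs were put into 5 zones with limits of 0.276, 0.385, 0.516 and 0.69. The most central zone held 226 pIVCL cells (12.7% of those with an index) and 123 Control cells (27.4%). Cyp2e1 and other central index genes were themselves lower in pIVCL, and a lower level of them lowers the index of a cell. Zone sizes are therefore not compared further. Cells of equal index in the libraries need not share a lobular position, so ratios within a zone or bin compare cells of like index only.

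Glul was nearly confined to the most central zone in Control and less so in pIVCL, except among cells of low mitochondrial share, where the libraries had like gradients with wide intervals. From the most portal zone to the most central one it measured 10.5, 10.9, 20.0, 34.3 and 164 CPM in pIVCL, and 27.7, 22.2, 38.7, 61.9 and 4025 CPM in Control. The most central zone over the most portal zone was 15.5 (10.4 to 24.2) in pIVCL and 145 (105 to 207) in Control, and that zone held 68.7% of the Glul UMIs of zoned cells in pIVCL and 98.6% in Control. In the other 4 zones the level was below that of Kupffer-like, LSEC-like and vascular endothelial-like cells given below. From zone 1 to zone 3 it was also below that of B cell-like cells, 26.7 CPM in pIVCL and 59.1 CPM in Control, which also hold free RNA. How much of their Glul was free RNA and how much their own was not tested. The part of free RNA in these quotients and shares was not tested. Within the most central zone the Glul ratio was 0.0407 (0.0374 to 0.0442). It was 0.126 without clusters 3 and 12, and the most central zone over the most portal zone was then 8.67 in pIVCL and 22.4 in Control. With at least 1000 UMIs and at most 10% mitochondrial UMIs that quotient was 22.6 (7.44 to 112) in pIVCL and 23.6 (9.61 to 75.2) in Control.

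Slc1a2 and Rhbg followed the same order of zones. Slc1a2 had 95 of its 96 pIVCL UMIs in the most central zone, at 26.3 CPM, and 2446 UMIs there in Control, at 852 CPM, a ratio of 0.0309 (0.0249 to 0.0379). Rhbg had 5.54 CPM there in pIVCL and 35.5 CPM in Control, a ratio of 0.156 (0.0914 to 0.253). Oat also had most of its zoned UMIs in the most central zone, 67.1% in pIVCL and 95.4% in Control, but it already rose in the zones before it. Its level by zone, again from portal to central, was 18.6, 26.7, 63.5, 153 and 528 CPM in pIVCL, and 26.9, 30.4, 95.3, 183 and 2523 CPM in Control. Its ratio was thus between 0.667 and 0.879 in the outer 4 zones and 0.209 (0.199 to 0.220) in the most central one.

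Among the regulators, Lgr5 and Tbx3 were steeply zoned in both libraries, and Rnf43 and Znrf3 only weakly. In the most central zone Lgr5 had 11.1 CPM in pIVCL and 35.2 CPM in Control, a ratio of 0.315 (0.213 to 0.458). Tbx3 had 34.9 CPM in pIVCL and 71.1 CPM in Control, a ratio of 0.491 (0.390 to 0.616), and its most central zone over the first 2 zones was 14.5 (8.68 to 25.6) in pIVCL and 25.9 (12.3 to 65.3) in Control. The same quotient for Rnf43 was 3.20 (2.12 to 4.90) in pIVCL and 3.47 (2.10 to 5.98) in Control, and for Znrf3 1.89 (1.12 to 3.20) and 2.61 (1.45 to 4.93), so these slopes did not differ beyond counting error. Axin2 measured 9.97 CPM in the most central zone in pIVCL (36 UMIs) and 13.6 CPM in Control (39 UMIs), and the interval of its ratio, 0.734 (0.453 to 1.19), held 1. In that zone 6 of the 9 genes had a ratio of 0.5 or less, beside 4.42% of 9464 genes, and 8 had an interval below 1, beside 19.2%.

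**Figure D2:**
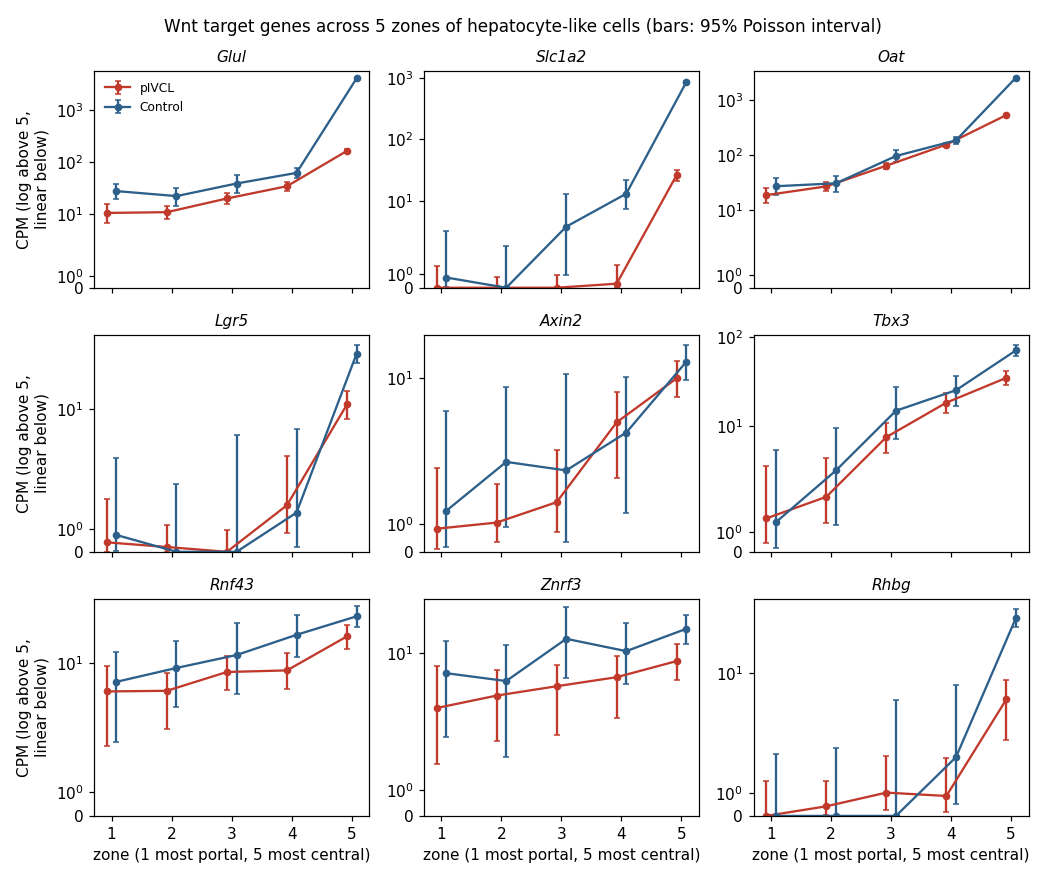
Level of each of the 9 genes (CPM, log axis above 5 and linear below) in 5 zones of hepatocyte-like cells from most portal (1) to most central (5), pIVCL in red and Control in blue; bars are 95% exact Poisson intervals. Glul, Slc1a2 and Oat climb to 164, 26.3 and 528 CPM in zone 5 of pIVCL and to 4025, 852 and 2523 CPM in Control, while the bars of Axin2 overlap there, at 9.97 CPM in pIVCL and 13.6 CPM in Control.

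Cells of the most central zone still differed in index, so the zone was divided by it, a division chosen after seeing the data. At an index of at least 0.95 there were 11 pIVCL and 27 Control cells, and here the ratios of Glul and Slc1a2 lay below that of Oat. Glul had 1334 CPM in pIVCL and 11493 CPM in Control, a ratio of 0.116 (0.101 to 0.132), and Slc1a2 had 207 CPM in pIVCL and 2094 CPM in Control, a ratio of 0.0987 (0.0685 to 0.138). Oat was closer, at 2934 CPM in pIVCL and 5116 CPM in Control, a ratio of 0.574 (0.522 to 0.629). Rhbg stood at 41.3 CPM in pIVCL (7 UMIs) and 97.4 CPM in Control (88 UMIs), a ratio of 0.424 (0.166 to 0.911), whose interval reaches across that of Oat.

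The regulators did not differ beyond counting error in these cells of highest index. Tbx3 had 136 CPM in pIVCL (23 UMIs) and 126 CPM in Control (114 UMIs), a ratio of 1.08 (0.656 to 1.69). Lgr5 had 47.2 CPM in pIVCL (8 UMIs) and 62.0 CPM in Control (56 UMIs), a ratio of 0.762 (0.314 to 1.61). The ratios of Rnf43, Znrf3 and Axin2 were 1.07 (0.363 to 2.60), 0.889 (0.168 to 3.04) and 0.254 (0.00614 to 1.58), from 6, 3 and 1 UMIs in pIVCL, so their intervals allow a several-fold difference in either direction or, for Axin2, a much lower level. The intervals of Glul and Tbx3 do not meet, but both come from 11 pIVCL cells of 1 library. In the cells of that index with at least 10000 UMIs, 7 of pIVCL and 22 of Control, the ratios of Glul, Slc1a2, Oat and Tbx3 were 0.121, 0.105, 0.588 and 1.09.

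At a lower index the order of the members was another. Between 0.8 and 0.9, with 73 pIVCL and 32 Control cells, Slc1a2 was at 2.84 CPM in pIVCL (4 UMIs) and 212 CPM in Control (130 UMIs), a ratio of 0.0134 (0.00360 to 0.0352). Oat was at 460 CPM in pIVCL and 1653 CPM in Control, a ratio of 0.278 (0.252 to 0.307), and Glul at 96.0 CPM in pIVCL and 256 CPM in Control, a ratio of 0.375 (0.295 to 0.475). From 0.69 to 0.8 the ratio of Glul was 0.589 (0.430 to 0.807), from 84 UMIs in each library. The ratio of Glul was therefore lower in each more central bin, while that of Oat was lowest in the middle ones.

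**Figure D3:**
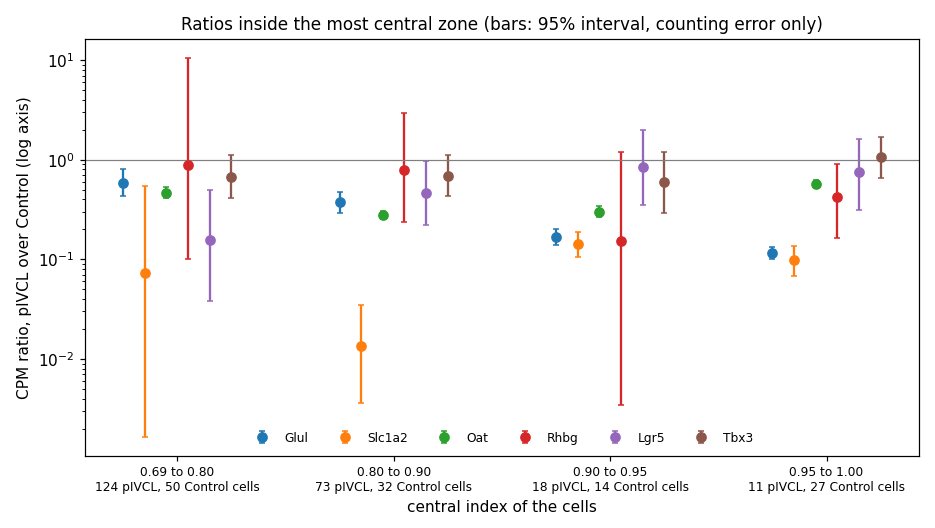
Ratio of CPM, pIVCL over Control (log axis), of 6 members in 4 bins of the central index inside the most central zone; points are ratios and bars 95% intervals for counting error. In the last bin Glul (0.116) and Slc1a2 (0.0987) stay far below 1, Oat is at 0.574, and the bars of Tbx3 (1.08) and Lgr5 (0.762) cross 1.

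Single cells also differed in Glul between the libraries. Among hepatocyte-like cells of at least 10000 UMIs, 5 of 686 in pIVCL (0.729%, 0.237% to 1.69%) and 28 of 218 in Control (12.8%, 8.71% to 18.0%) held Glul at 1000 CPM or more. The mark of 1000 CPM cuts a range and not a cell type: 2 cells of each library lay between 1000 and 1300 CPM and 1 of each between 700 and 1000. With an index of at least 0.9 as well, 5 of 18 pIVCL cells (27.8%, 9.69% to 53.5%) and 28 of 32 Control cells (87.5%, 71.0% to 96.5%) passed the mark. At an index of at least 0.95 the lowest, median and highest Glul level in a cell were 63.3, 592 and 3846 CPM in 7 pIVCL cells of that depth, against 1246, 11965 and 15231 CPM in 22 Control cells. The ranges overlapped only between 1246 and 3846 CPM. For Oat the corresponding values were 475, 2154 and 6972 CPM in pIVCL and 2436, 5214 and 8054 CPM in Control, which overlapped more widely. Slc1a2 was seen in 4 of the 7 pIVCL cells and in all 22 Control cells, whose lowest value, 1493 CPM, lay above the highest one of pIVCL, 641 CPM.

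The 5 pIVCL and 28 Control cells past the mark also held the other members. Their Oat level was 2744 CPM in pIVCL and 4739 CPM in Control, and their Slc1a2 level 465 CPM in pIVCL and 1997 CPM in Control. Lgr5 was at 68.8 CPM in pIVCL (8 UMIs) and 59.2 CPM in Control (66 UMIs), and Tbx3 at 112 CPM in pIVCL (13 UMIs) and 123 CPM in Control (137 UMIs). Rhbg was at 34.4 CPM in pIVCL (4 UMIs) and 84.3 CPM in Control (94 UMIs). Rnf43, Znrf3 and Axin2 had only 2, 2 and 3 UMIs in the pIVCL cells. In cells of the same depth below the mark Lgr5 was at 2.33 CPM in pIVCL and 6.55 CPM in Control, and Tbx3 at 12.2 CPM in pIVCL and 17.8 CPM in Control. Cells chosen by Glul were thus rich in Lgr5 and Tbx3 in both libraries, though in pIVCL this rests on few UMIs in 5 cells.

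**Figure D4:**
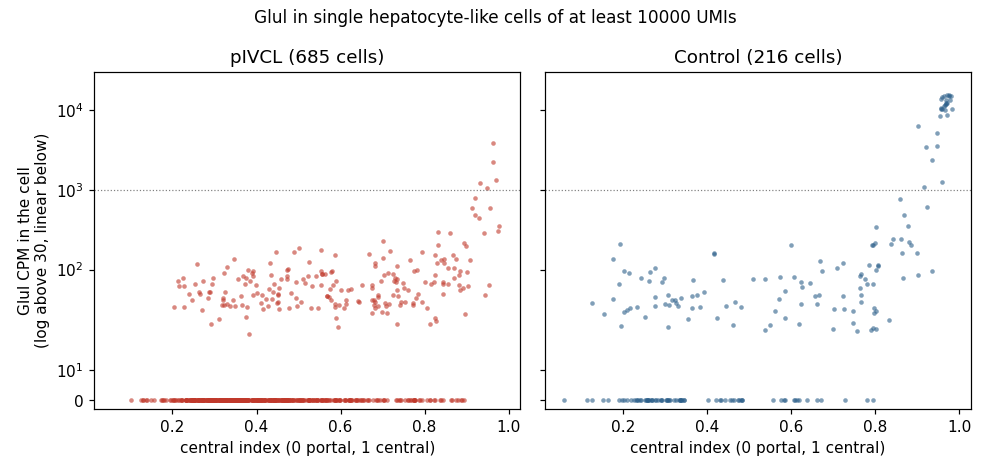
Glul in single hepatocyte-like cells of at least 10000 UMIs that have a central index: CPM in the cell (log axis above 30, linear below) against the index, pIVCL at left and Control at right, 1 point per cell; the dotted line marks 1000 CPM. Both libraries hold cells at an index above 0.9, where 5 of 18 pIVCL cells and 28 of 32 Control cells lie above the line.

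Depth changed the size of the difference but not its direction for Glul and Oat. In 4 bins of depth that start at 500, 1000, 2500 and 10000 UMIs per cell, Glul measured 124, 98.3, 38.5 and 45.4 CPM in pIVCL and 718, 1100, 129 and 1741 CPM in Control. The ratios were 0.173, 0.0894, 0.299 and 0.0261. Those of Oat were 0.204, 0.175, 0.501 and 0.143. Below 10000 UMIs per cell each other member had at most 36 UMIs in a bin and library, and no order is read from those.

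The share of cells with a Glul UMI was compared after thinning each cell to 1000 UMIs, which left out 434 pIVCL and 89 Control cells. It was 4.18% (3.20% to 5.35%) in pIVCL and 17.8% (14.1% to 22.0%) in Control, and unthinned 16.6% and 41.8%. B cell-like cells held the hepatocyte transcript Alb at 8597 CPM in pIVCL and 5394 CPM in Control, so free RNA reached them. Whether their Glul and Oat were free RNA or their own was not tested. Their thinned Glul shares were 2.56% (1.65% to 3.78%) in pIVCL and 3.88% (1.27% to 8.81%) in Control, at median depths of 1840 and 3271 UMIs. The pIVCL share of hepatocytes thus lay only just above that of B cell-like cells, with overlapping intervals. Slc1a2 was seen after thinning in 0.209% of pIVCL and 10.2% of Control hepatocyte-like cells, and in 0 of 938 pIVCL and 0 of 129 Control B cell-like cells, which allows shares of up to 0.320% and 2.33%. Oat was seen in 10.4% of pIVCL and 27.2% of Control hepatocyte-like cells, and in 7.46% and 10.1% of B cell-like cells.

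Outside hepatocytes, Glul was also present in other liver cells, and the order of the classes differed between the libraries. In pIVCL it was highest in Kupffer-like macrophages at 270 CPM (241 to 301) and vascular endothelial-like cells at 210 CPM (164 to 265), whose intervals overlapped. LSEC-like cells, the liver sinusoidal endothelium, followed at 138 CPM (122 to 154) and stellate-like cells at 114 CPM (85.9 to 148), also overlapping, and hepatocyte-like cells stood below them at 48.5 CPM. In Control hepatocyte-like cells led at 1609 CPM, followed by vascular endothelial-like cells at 531 CPM (492 to 572), with Kupffer-like cells at 251 CPM (225 to 278) and LSEC-like cells at 241 CPM (229 to 254) not set apart. Between the libraries the Glul ratio was 1.08 (0.924 to 1.26) in Kupffer-like cells and 1.03 (0.742 to 1.42) in stellate-like cells. It was 0.571 (0.503 to 0.647) in LSEC-like cells and 0.396 (0.306 to 0.506) in vascular endothelial-like cells. The LSEC-like class is made of different clusters in the libraries: 455 pIVCL and 10 Control cells fell in cluster 7, 8 pIVCL and 737 Control cells in cluster 2, and 158 pIVCL and 314 Control cells in cluster 6, whose cells were shallow. The vascular endothelial-like class also mixes groups of cells in different proportions. With at least 1000 UMIs and at most 10% mitochondrial UMIs it fell into separate clusters. That led by Ednrb held 16 pIVCL and 78 Control cells, that led by Rspo3 52 and 30, and that led by Ccl21a 16 and 4. B cell-like cells held 26.7 CPM in pIVCL and 59.1 CPM in Control, and the part of free RNA in the endothelial ratios was not tested.

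The other members differed in the share of their UMIs that lay in hepatocyte-like cells. Such a share also depends on how much of a library these cells make up. They were 34.4% of cells in pIVCL and 17.3% in Control, and their share of all UMIs is not given here. The shares are therefore not compared between the libraries. Of the Tbx3 UMIs of kept cells, hepatocyte-like cells held 94.7% in pIVCL and 90.6% in Control, and of those of Slc1a2 65.3% in pIVCL and 94.3% in Control. They held 69.3% of the Znrf3 UMIs in pIVCL and 65.6% in Control, and 74.4% of the Axin2 UMIs in pIVCL and 47.7% in Control. Slc1a2 was also present in Kupffer-like cells, at 36.9 CPM (26.8 to 49.6) in pIVCL and 58.0 CPM (46.1 to 72.1) in Control, a ratio of 0.636 (0.430 to 0.930). B cell-like cells held 0.954 and 10.9 CPM of it, while their Oat level, 77.2 CPM in pIVCL and 89.7 CPM in Control, was near that of Kupffer-like cells, 79.7 and 102 CPM. Oat stood highest outside hepatocytes in mesothelial-like cells, at 318 CPM in pIVCL and 267 CPM in Control, and in stellate-like cells, at 242 CPM in pIVCL and 304 CPM in Control, a stellate ratio of 0.795 (0.641 to 0.980). Znrf3 and Axin2 were also present in lymphocytes. T cell-like cells held Znrf3 at 27.5 CPM (5 UMIs) in pIVCL and 14.5 CPM (11 UMIs) in Control, and Axin2 at 16.5 CPM (3 UMIs) in pIVCL and 11.9 CPM (9 UMIs) in Control. The NK/ILC1-like class is cluster 8, which also has the T cell genes Trbc2 and Cd3g among its leading genes. It held Znrf3 at 20.3 CPM (17 UMIs) in pIVCL and 23.3 CPM (8 UMIs) in Control, and Axin2 at 10.7 CPM (9 UMIs) in pIVCL and 8.74 CPM (3 UMIs) in Control. The ratios of both genes in that cluster, 0.871 (0.356 to 2.33) and 1.23 (0.307 to 7.06), held 1.

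**Figure D5:**
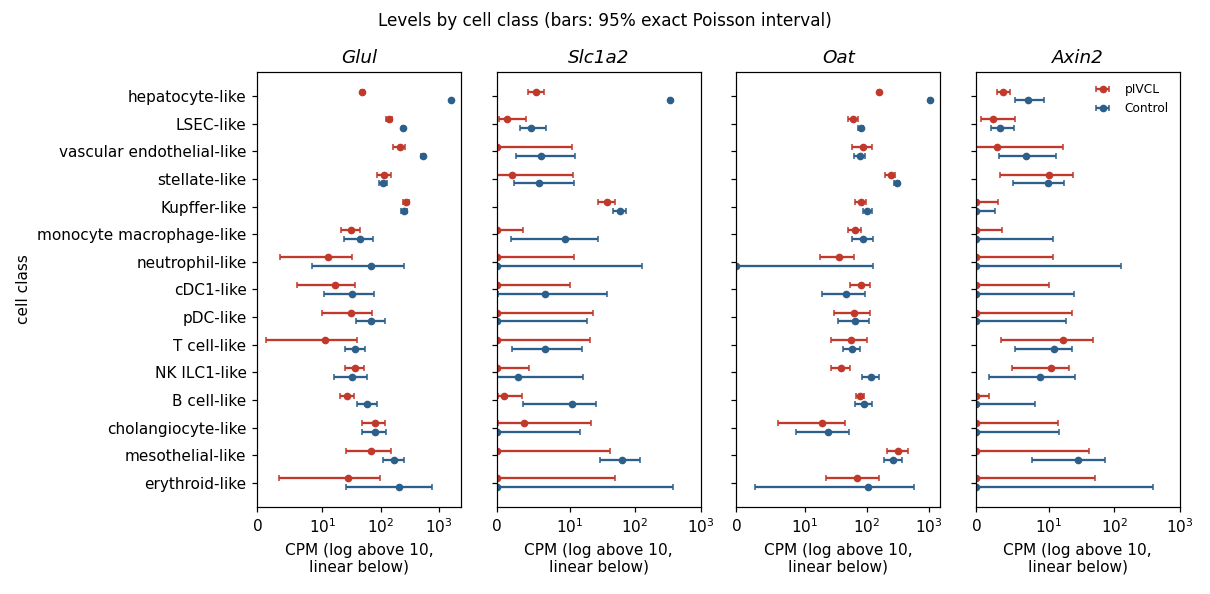
Level (CPM, log axis above 10 and linear below) of Glul, Slc1a2, Oat and Axin2 in each cell class, pIVCL (red) above Control (blue); bars are 95% exact Poisson intervals. Gaps are wide in the hepatocyte-like row (Glul 48.5 CPM in pIVCL and 1609 CPM in Control, Oat 159 and 1044 CPM). Glul also differs in vascular endothelial-like cells (210 and 531 CPM), while in Kupffer-like cells it stands at 270 and 251 CPM.

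To see which transcripts share the pattern of Glul, every gene found in at least 5% of 321 Control hepatocyte-like cells of at least 2500 UMIs was ranked by its Pearson correlation with Glul across those cells (log of UMIs per 10000, 9573 genes). Depth and the position of a cell are shared by all genes, so the values are descriptions. The first 10 were Slc1a2 (0.89), Slc13a3 (0.84), Rhbg (0.80), Cyp2a5 (0.76), Oat (0.75), Lhpp (0.74), Gulo (0.70), Lgr5 (0.66), Cyp1a2 (0.63) and Ces2c (0.63). Of the 8 other members 4 were therefore among them, Tbx3 ranked 25, Axin2 80, Znrf3 214 and Rnf43 683. Across 958 pIVCL cells of that depth the correlation of the 10 genes with Glul lay between 0.19 and 0.47, highest for Slc1a2. Detection differed as well: Slc1a2 was seen in 1.46% of these pIVCL cells and 14.3% of the Control ones, and Rhbg in 2.40% and 11.5%. Cyp2a5, Cyp1a2 and Ces2c were seen in a larger share of the pIVCL cells. The part of detection in the lower correlations was not tested. Lhpp, a phosphatase gene, lies 34239 bases from Oat on the opposite strand, and it had 7.17 CPM in pIVCL and 53.4 CPM in Control, a ratio of 0.134 (0.109 to 0.164). Slc13a3, a dicarboxylate transporter gene, had a ratio of 0.421 (0.345 to 0.513). Cyp2a5 and Ces2c were higher in pIVCL, with ratios of 1.32 (1.23 to 1.41) and 1.33 (1.04 to 1.72). Reads of Cyp2a5 can be split with its near-identical relative Cyp2a4, so its ratio is uncertain.

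Lists of upstream parts of the pathway had median ratios nearer to 1 in hepatocyte-like cells than the list of perivenous targets. Of 14 further pericentral genes listed as targets, 6 of which are also index genes, 13 had enough UMIs, and 10 were lower, 2 higher and 1 neither by their interval, at a median log2 ratio of -0.52 against 0.00 over all genes. Over all 11540 genes 21.7% were lower and 22% higher by that rule. Cyp2e1, a cytochrome P450, had a ratio of 0.206 (0.202 to 0.211) and Nr1i3, the nuclear receptor CAR, 0.366 (0.337 to 0.397). Gulo, of vitamin C synthesis, was at 0.469 and Cyp1a2 at 0.622. Among 11 receptor genes 3 were lower, 1 higher and 7 neither (median -0.07), a share of lower genes near that of all genes, with Ryk at 0.751, Fzd8 at 0.669, the co-receptor gene Lrp5 at 0.725 and Fzd7 at 1.44.

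Inside the cell, 14 destruction-complex genes divided into 2 lower, 1 higher and 11 neither (median -0.01). Apc and Gsk3b, parts of the complex, were at 0.749 and 0.887, Fbxw11, a ubiquitin ligase subunit, at 1.20 (0.996 to 1.46), and Ctnnbip1, an inhibitor of beta-catenin, at 1.79 (1.45 to 2.23). Of 13 nuclear genes 5 were lower and 8 neither (median -0.08), among them Hnf4a at 0.799, the co-repressor Tle1 at 0.674, the co-activator Bcl9l at 0.707 and Tcf7 at 0.405. Only 2 secreted or membrane inhibitors had enough UMIs. Notum, an enzyme that inactivates Wnt proteins and is itself a target, was at 0.414 (0.335 to 0.512), with 10.1 CPM in pIVCL and 24.3 CPM in Control, and Kremen1 at 1.04 (0.716 to 1.53).

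Wnt targets known from other tissues were mixed, with 6 lower, 3 higher and 2 neither of 11 (median -0.14). Besides Notum, the lower ones included Nkd1, a feedback inhibitor, at 0.0506 (0.00976 to 0.167), from 3 UMIs in pIVCL and 24 in Control, and Sp5, a transcription factor gene, at 0.101 (0.0373 to 0.237), from 7 UMIs in pIVCL and 28 in Control. Nkd1 and Sp5 were chosen after their values were seen. The higher ones were Ccnd1, Sox9 and Prom1. Ccnd1, a cyclin, was at 1.31 (1.21 to 1.40), Sox9 at 1.75 (1.33 to 2.35) and Prom1 at 19.6 (8.88 to 53.8), with 290 UMIs in pIVCL and 6 in Control. Of 15 measured genes of ammonia and glutamate handling outside the 9, 6 were lower, 6 higher and 3 neither (median 0.01). Gls2, the portal glutaminase, and Ass1, of the urea cycle, were higher, at 1.77 (1.67 to 1.88) and 1.42 (1.39 to 1.46), and the glutamine transporter gene Slc38a3 and Glud1, glutamate dehydrogenase, lower, at 0.671 (0.641 to 0.702) and 0.763 (0.743 to 0.783). Of the index genes themselves, 11 of 14 central ones were lower and 2 higher (median -0.61), and 6 of 15 portal ones lower and 8 higher (median 0.19). Cyp2c37 stood at 0.183 and Slco1b2 at 0.398 among the central, Mfsd2a at 0.220, Cyp2f2 at 1.91 and Hsd17b13 at 1.78 among the portal.

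Of 23 ligand and R-spondin genes, 4 had at least 20 UMIs in hepatocyte-like cells, where Wnt5b was at 1.78 (1.12 to 2.93) and Wnt2 at 0.333 CPM in pIVCL (6 UMIs) and 2.74 CPM in Control (20 UMIs). Wnt5a and Rspo3 were at 1.56 (0.664 to 4.25) and 1.70 (0.624 to 5.77). In LSEC-like cells, which as said fall into different clusters, Wnt2 measured 43.7 CPM in pIVCL (95 UMIs) and 347 CPM in Control (2061 UMIs). Wnt9b measured 0.460 CPM in pIVCL (1 UMI) and 14.8 CPM in Control (88 UMIs). Wnt4 went the other way in LSEC-like cells, at a ratio of 3.03 (1.11 to 8.44), from 10 UMIs in pIVCL and 9 in Control. The ratio of Rspo3 in that class, 0.945 (0.778 to 1.14), held 1. Rspo3, the main R-spondin gene of central vein endothelium, measured 636 CPM in pIVCL and 1141 CPM in Control in vascular endothelial-like cells, a ratio of 0.558 (0.481 to 0.644), while Wnt2 there had a ratio of 1.12 (0.824 to 1.51). That class mixes groups of cells in different proportions, as said, so these ratios need not compare like cells. In stellate-like cells Rspo3 had 266 CPM in pIVCL and 893 CPM in Control, and Wnt4 had a ratio of 0.462 (0.350 to 0.602).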

How the data were processed

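The authors deposited 1 gene by barcode matrix of raw UMI counts per library, made with Cell Ranger 3.0.2 on mm10, per the submitters' processing notes. Those counts start at 500 UMIs per barcode in both files, 7042 barcodes (38154000 UMIs) for pIVCL and 3574 (24637681) for Control. Barcodes were kept here if they had 200 or more genes and a mitochondrial share of 25% or less. Scrublet (in scanpy 1.11.5, expected rate 6%) called 3 pIVCL and 5 Control barcodes (0.0551% and 0.183%), so it did not work as a caller and doublets remain. Cells of both libraries were clustered together (2000 variable genes, 30 components, 20 neighbours, leidenalg 0.10.2 at resolution 1). Clusters were named from 176 markers of 19 classes. Coordinates come from GENCODE M21 (GRCm38), which held 30934 of 31053 identifiers (99.6%). Levels are CPM of summed UMIs with exact Poisson intervals, shares have exact (Clopper-Pearson) ones, and the interval of a ratio is the exact binomial one given the total of both libraries, each at 95%. A count of 0 allows up to 3 UMIs or cells. "Lower", "higher" and "neither" for list genes say whether the interval lies below, above or across 1, over genes with at least 20 UMIs. Zone limits are quintiles of the index with the libraries weighted equally. The ratio interval was run on simulated Poisson counts, which hold no spread between cells or libraries. That run checks the calculation only and cannot show that the intervals cover such spread. Genes named beyond the 9 are the 10 most correlated with Glul, up to 4 of each list whose log2 ratio was farthest from 0, and the ligand genes with most UMIs; some others were named after their values were seen. The members, lists and zone genes were chosen with earlier results of these data known. Bins of mitochondrial share, like those of the index, were chosen after seeing the data. Alternatives were other cell limits, doublet and class rules, scalings, weights, zone limits and depths. Python 3.11.15, numpy 2.4.6 and scipy 1.17.1 were used.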

Additional observations from a re-analysis of the deposited data

How the results depend on the processing

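No paired analysis was possible because each group held 1 library. Under a mitochondrial limit of 50%, classes set per cell from markers, Leiden resolution 2, removal of the highest 6% of doublet scores and scaling without mitochondrial and the 20 most abundant genes (which shifts every log2 ratio by -0.04), the Glul ratio in hepatocyte-like cells lay between 0.0286 and 0.0304 and all 9 intervals below 1. Cells of at least 2500 UMIs gave 0.0276 and the mean of per-cell CPM 0.0797. At least 1000 UMIs with at most 10% mitochondrial UMIs, which leaves 118 Control cells and 89 Control Glul UMIs, gave 0.328 with 4 intervals below 1, and leaving out clusters 3 and 12 gave 0.324 with 4. The share of all genes with such an interval was not measured under these alternatives. In the most central zone the Glul ratio was 0.216 with the limit of 10%, 0.126 without the clusters and 0.0895 as a mean over cells. It was 0.0356 with an index without Cyp2e1 and 0.0249 with zone limits within each library. By index it was 0.589, 0.375, 0.168 and 0.116 from the lowest bin to the highest, and 0.856, 0.278, 0.170 and 0.121 in cells of at least 10000 UMIs. The most central over the most portal zone without clusters 3 and 12 was 8.67 in pIVCL and 22.4 in Control, with the limit of 10% 22.6 in pIVCL and 23.6 in Control, and as a mean over cells 17.8 in pIVCL and 70.7 in Control. Thinned Glul shares were 6.30% in pIVCL at 2000 UMIs, 6.15% in pIVCL and 12.0% in Control without clusters 3 and 12, and in Control 12.6% at a limit of 50% and 13.6% at a limit of 10%. Ratios with an interval below 1 that came out above 1 were those of Lgr5 (1.21 with the limit of 10%, 2.16 without the clusters, and 1.01 in the most central zone without them), Axin2 (1.39 as a mean over cells and 1.62 without the clusters), Tbx3 (1.08, and 1.09 in deep cells) and Rnf43 (1.07) at an index of at least 0.95. The Axin2 ratio in the most central zone, whose interval held 1, was 1.30 at an index under 0.8 and 1.72 at 0.9 to 0.95 (1.33 and 1.72 in deep cells). The cause of these moves was not tested, except that the limit of 10% and the left-out clusters keep few deep Control cells. With the limit of 10% or without the clusters, Rhbg in either set of cells and Axin2 and Znrf3 in the most central zone had no Control UMIs and so no ratio. Leaving out clusters and dividing the zone were chosen after seeing the data. Depth limits the members of few UMIs: Axin2 rests on 67 in pIVCL and 52 in Control, and Rhbg on 29 in pIVCL and 105 in Control.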

Other observations

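Prom1, a membrane protein of progenitor and biliary cells and a Wnt target in intestine, stood apart from the other targets in pIVCL hepatocyte-like cells, with 16.1 CPM in pIVCL and 0.824 CPM in Control. Its UMIs lay in 224 pIVCL cells and 6 Control cells. Cluster 3, of deep cells, held 256 of the 290 pIVCL UMIs, at 17.5 CPM, near the 16.1 CPM of the class. The 5 zones from portal to central held 25, 94, 53, 53 and 64 of them, at 10.5, 20.1, 13.7, 15.7 and 17.7 CPM. Of other genes of bile duct cells, Krt19, Krt7 and Epcam were near 0 in the same class: Krt19 had 7 UMIs in pIVCL and 2 in Control, Krt7 4 and 0, and Epcam 18 and 7. Sox9 was not, with 273 UMIs in pIVCL (15.2 CPM) and 63 in Control (8.65 CPM). Spp1, which bile duct cells hold at 15952 CPM in pIVCL and 17560 CPM in Control, had 42.1 CPM in pIVCL hepatocyte-like cells and 19.4 CPM in Control ones. Prom1 in cholangiocyte-like cells was at 97.4 CPM in pIVCL and 201 CPM in Control. The part of bile duct cell RNA in the Prom1 level was not tested.

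The barcodes that the filters left out, 1599 of pIVCL and 853 of Control, held Glul at 17.6 CPM in pIVCL and 453 CPM in Control, and Oat at 66.4 CPM in pIVCL and 310 CPM in Control. They carried 9.44% of the Glul UMIs of the pIVCL library and 13.1% of those of the Control library. Over all deposited barcodes, with no filter and no cell class, the ratio of Glul was 0.0764 (0.0728 to 0.0800), that of Slc1a2 0.0358 and that of Oat 0.266.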
